A study of Mus musculus with 20 samples.

Results

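The transcripts of 9 proteins that write or read 5-methylcytosine (m5C) in RNA were followed in mouse liver. The writers are Nop2, Nsun2, Nsun3, Nsun4, Nsun5, Nsun6 and Trdmt1, and the readers are Alyref and Ybx1. The rows of the count table were matched by Ensembl identifier to these symbols in the GENCODE M21 annotation, and all 9 were found among the 21780 genes of the table. All 9 passed the filter on low counts and were among the 15522 genes tested.

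The livers came from 20 male C57BL/6J mice, 5 in each of 4 groups, and every group, controls included, ate a high-fat diet (HFD) with 42% of its energy from fat. The HFD control mice received corn oil, the HFD + Aroclor mice the PCB mixture Aroclor 1260 at 20 mg/kg, the HFD + PCB 126 mice the dioxin-like congener PCB 126 at 20 µg/kg, and the HFD + Aroclor + PCB 126 mice both (the combined exposure). The diet began at 8 weeks of age and each mouse had 1 gavage at 10 weeks of age. The methods describe 10 weeks between gavage and the end of the 12-week diet, whereas the sample labels give 12 weeks of treatment, and no group on a control diet was analysed here.

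Methylation of the fifth carbon of cytosine is laid down on tRNA, rRNA and mRNA by the NSUN enzymes and by Trdmt1, a relative of the DNA methyltransferases. In rRNA and tRNA the mark is known for its part in ribosome assembly, in the stability of tRNA and in mitochondrial translation. In mRNA it is bound by readers, among which Alyref hands messages to the nuclear export machinery and Ybx1 protects messages in the cytoplasm. The table measures the transcripts of these proteins, not the m5C mark or the proteins themselves.

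Library totals lay between 21836506 and 36854887 counts, and the 5 hepatocyte markers (Alb, Apoa1, Ttr, Cyp2e1 and Cps1) summed to between 81700 and 117000 CPM (counts scaled to a common library size) in every liver. Cyp1a1, a target of the dioxin receptor, averaged 0.612 CPM in HFD control, 78.6 CPM in HFD + PCB 126 and only 1.32 CPM in the combined exposure, although the labels give both groups PCB 126. Cyp1a2, another such target, averaged 387, 1590 and 775 CPM in the same groups and was higher than control in both (log2FC 2.04, adjusted p = 0.000294, and 1.00, adjusted p = 0.00325; edgeR). The libraries also differed in how level followed the GC content of the transcript. This was summarised as the GC slope, the change in log2 level per 10 points of GC percentage relative to the average library. The control slope averaged 0.234 ± 0.131 (SD, n = 5), while that of the Aroclor livers averaged -0.001 ± 0.074, that of the PCB 126 livers 0.103 ± 0.189 and that of the combined exposure -0.337 ± 0.163. The lowest control slope was 0.085 and the highest slope of the combined exposure was -0.121, so these groups did not overlap. The library index numbers in the labels also run through the groups one after another, so the exposure and the order of the libraries cannot be told apart. The log2FC of each of the 9 genes with the combined exposure is therefore given as measured and again after a correction for GC content.

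In HFD control liver, the levels per kilobase of exon (FPKM) differed widely among the 9 genes. Ybx1 was the most abundant at 60.8 ± 7.63 FPKM (SD, n = 5). Nsun2, which methylates many tRNAs as well as mRNA, followed at 17.4 ± 1.09 FPKM, and Nop2, which methylates the RNA of the large ribosomal subunit, at 6.51 ± 0.985 FPKM. Nsun4, which acts on the rRNA of the mitochondrial small subunit, had 3.77 ± 0.304 FPKM and Alyref 2.72 ± 0.193 FPKM. The control ranges of these 5 genes did not overlap with those of their neighbours in this order.

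Nsun3, which methylates the mitochondrial tRNA for methionine, had 1.86 ± 0.36 FPKM in HFD control, and Nsun5, a second enzyme for the large ribosomal RNA, had 1.76 ± 0.202 FPKM. The ranges of these writers overlapped (1.41 to 2.24 and 1.48 to 2.00 FPKM). Nsun6, which methylates certain tRNAs near their end and some mRNAs, had 0.735 ± 0.0898 FPKM and Trdmt1, which methylates the anticodon loop of the tRNA for aspartate, had 0.608 ± 0.185 FPKM. These lowest members also overlapped with each other (0.673 to 0.893 and 0.404 to 0.817 FPKM), and neither overlapped with Nsun5. Over all 20 livers the mean FPKM of Ybx1 was 69.4 times that of Nsun6.

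**Figure D1:**
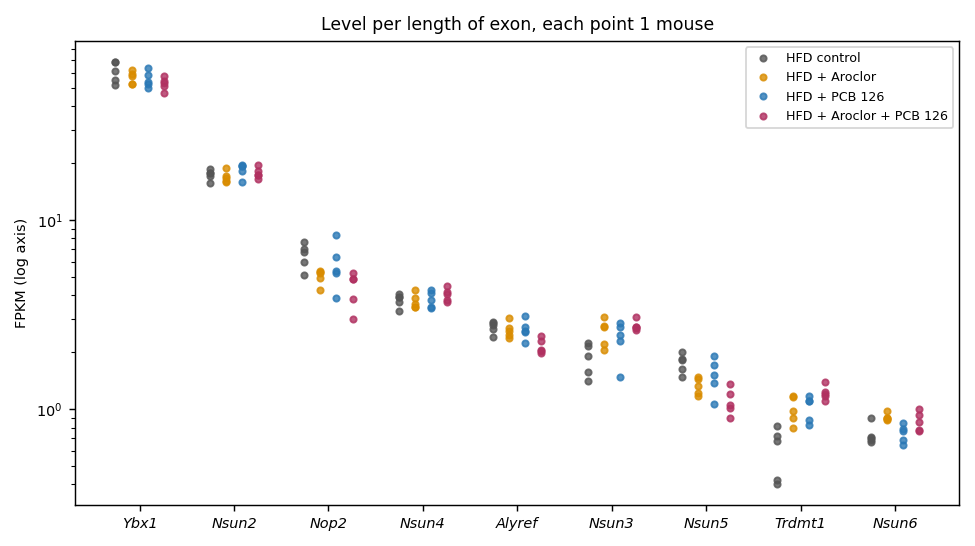
FPKM of each of the 9 genes on a log axis, with 1 point per mouse and a colour for each group; the genes are ordered by their mean over the groups. The order of the genes is broadly kept in the 4 groups, with Ybx1 and Nsun2 above the others in every mouse, while Nsun3 lies above Alyref in all mice of the combined exposure.

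With the combined exposure the order changed at 2 places. Nsun3 was between 2.63 and 3.08 FPKM and Alyref between 1.99 and 2.43 FPKM, so that Nsun3 stood above the reader without overlap, the reverse of the control order. Trdmt1 was between 1.10 and 1.40 FPKM, above Nsun6 (0.769 to 1.00 FPKM) without overlap, and its mean of 1.22 FPKM was above that of Nsun5 (1.11 FPKM), whose range it overlapped (0.901 to 1.36 FPKM). The mean of Trdmt1 was also above that of Nsun6 with Aroclor alone (1.00 and 0.906 FPKM) and with PCB 126 alone (1.02 and 0.746 FPKM). None of these FPKM values is corrected for GC content. The exon lengths used here join all annotated isoforms of a gene, so an FPKM is a lower estimate where a shorter isoform is used. In bulk liver, fewer cells of a type and less RNA per cell cannot be told apart.

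Against HFD control, 5 of the 9 transcripts changed with the combined exposure at an adjusted p under 0.05 in edgeR's quasi-likelihood test. Trdmt1 and Nsun3 rose, and Nop2, Nsun5 and Alyref fell, while Nsun2, Nsun4, Nsun6 and Ybx1 did not pass the threshold. Among all tested genes, 32.8% were called in the same comparison, 15.8% higher and 17% lower. At an unadjusted p under 0.05 there were 6 of the 9, beside 42.4% of all genes. The median log2FC of the 9 was 0.03 and that of all tested genes -0.001. After the GC correction, 1 of the 9 was called, Alyref, beside 4.3% of all genes.

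**Figure D2:**
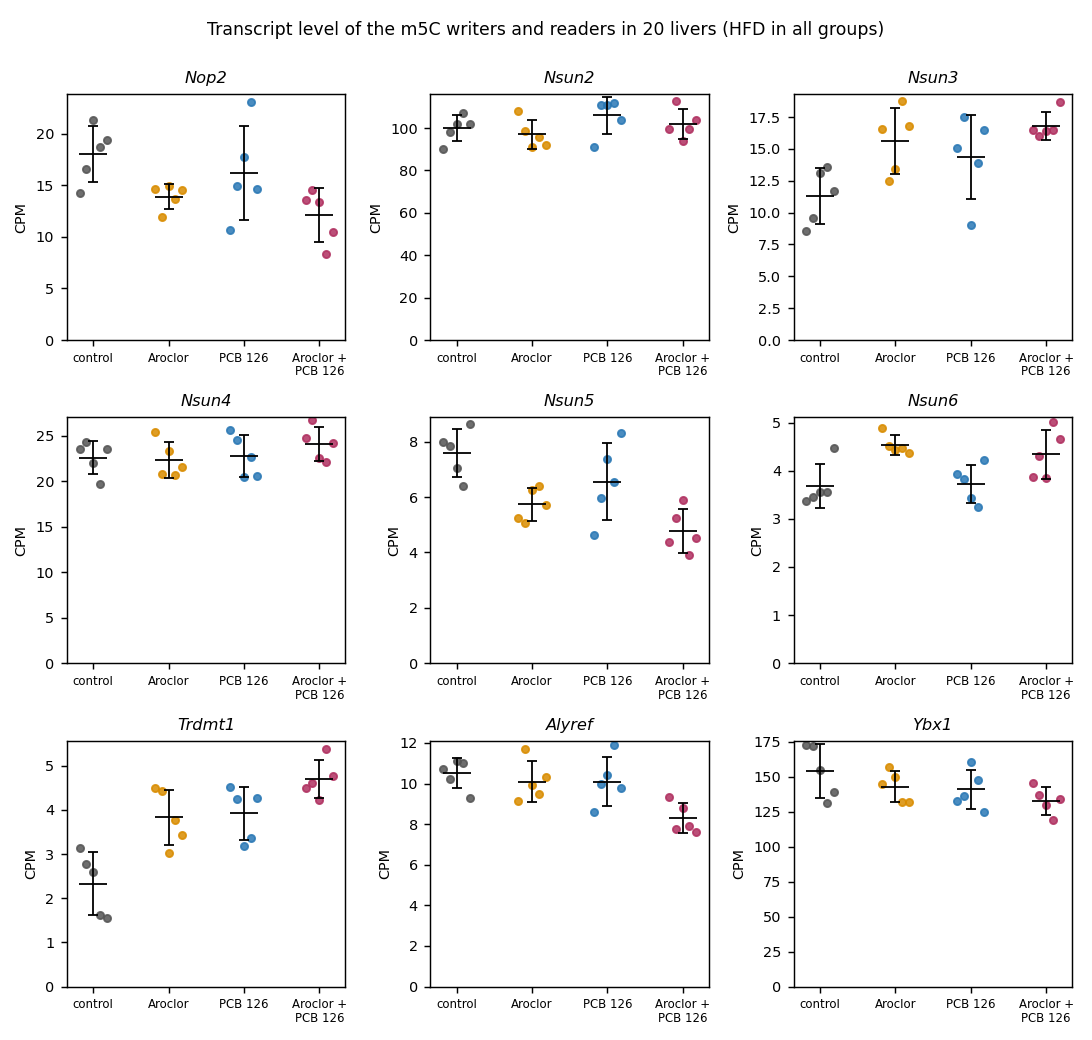
CPM of each gene in the 20 livers (vertical axes start at 0), with 1 point per mouse, a horizontal mark for the group mean and bars for the SD (n = 5). Trdmt1 and Nsun3 lie higher and Nsun5 lower in every mouse of the combined exposure than in every control mouse, and the single exposures lie mostly between. The CPM are not corrected for GC content.

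Trdmt1 had the largest change of the 9. Its 5 control livers had 3.13, 2.77, 2.59, 1.62 and 1.55 CPM, from only 36 to 120 counts. The livers of the combined exposure had 4.49, 4.60, 4.23, 5.38 and 4.76 CPM, from 102 to 148 counts. Every liver of the combined exposure was therefore above every control liver, and 2 control livers stood below the rest. The log2FC was 0.99 ± 0.183 (SE; adjusted p = 0.00108), a 1.99-fold rise. With the GC correction it was 0.50 (95% confidence interval 0.10 to 0.91; adjusted p = 0.132). The transcript has 41.65% GC, and the tested genes of at least 1 CPM with 40 to 42% GC had a median log2FC of 0.49, with quartiles of 0.33 and 0.69.

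Trdmt1 also had the largest log2FC with either PCB alone. The HFD + Aroclor livers had 4.49, 4.43, 3.03, 3.77 and 3.44 CPM, and the HFD + PCB 126 livers 4.53, 4.25, 3.18, 3.36 and 4.26 CPM. The lowest Aroclor liver lay just under the highest control liver, while all PCB 126 livers lay above the controls. The log2FC was 0.70 ± 0.183 with Aroclor (adjusted p = 0.184) and 0.73 ± 0.183 with PCB 126 (adjusted p = 0.0846), and neither passed the threshold. DESeq2's Wald test, without GC correction, called both (adjusted p = 0.0399 and 0.0114). With the GC correction in edgeR the log2FC was 0.47 with Aroclor (adjusted p = 0.389) and 0.62 with PCB 126 (adjusted p = 0.164).

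Nsun3 was the other writer that rose. Its control livers had 8.57, 9.59, 13.1, 13.6 and 11.7 CPM, and those of the combined exposure 16.5, 16, 16.4, 16.5 and 18.7 CPM. The groups did not overlap and the exposed livers varied little among themselves (SD 1.07 CPM, against 2.19 CPM in control). The log2FC was 0.58 ± 0.160 (adjusted p = 0.00953). With 42.93% GC, Nsun3 is among genes whose median log2FC was 0.41 (42 to 44% GC), and its GC-corrected log2FC was 0.20 (-0.07 to 0.47; adjusted p = 0.397). With Aroclor alone its 5 livers had 12.5 to 18.8 CPM (log2FC 0.47 ± 0.160, adjusted p = 0.203), and with PCB 126 alone 9.01 to 17.5 CPM (log2FC 0.35 ± 0.160, adjusted p = 0.317).

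Both writers of the large ribosomal RNA fell with the combined exposure. Nsun5 had 7.99, 7.85, 7.06, 6.40 and 8.64 CPM in the control livers and 4.36, 5.24, 5.88, 3.89 and 4.51 CPM in those of the combined exposure, with no overlap. Its log2FC was -0.67 ± 0.147 (adjusted p = 0.00254), and -0.44 after the GC correction (-0.73 to -0.15; adjusted p = 0.0722). The transcript has 54.07% GC, and genes with 54 to 56% GC had a median log2FC of -0.37 and a lower quartile of -0.56. Of the read-length windows of Nsun5, 12.68% are shared with Pom121 on the opposite strand, and it is not stated whether counting used strand, so its level is uncertain.

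Nop2 had 14.2, 16.6, 21.3, 18.7 and 19.4 CPM in control and 13.6, 14.5, 13.4, 8.29 and 10.5 CPM in the combined exposure. The groups overlapped, since the lowest control liver lay under the second mouse of the combined exposure. The log2FC was -0.58 ± 0.174 (adjusted p = 0.0148). With 55.29% GC it lies in the same class of genes as Nsun5, and its corrected log2FC was -0.27 (-0.62 to 0.09; adjusted p = 0.387). No read-length window of its exons is shared with another gene.

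With the single exposures the 2 ribosomal writers did not pass the threshold. Nsun5 was between 5.05 and 6.39 CPM in the Aroclor livers, all under the lowest control liver at 6.40 CPM (log2FC -0.40 ± 0.145, adjusted p = 0.214), and between 4.62 and 8.30 CPM in the PCB 126 livers (log2FC -0.21 ± 0.145, adjusted p = 0.517). Nop2 was between 11.9 and 14.9 CPM with Aroclor (log2FC -0.37 ± 0.172, adjusted p = 0.279). With PCB 126 its livers spread from 10.7 to 23.1 CPM (log2FC -0.15 ± 0.172, adjusted p = 0.723).

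Of the readers, Alyref fell with the combined exposure. Its control livers had 10.7, 10.2, 11.1, 11 and 9.29 CPM and those of the combined exposure 9.33, 7.75, 8.78, 7.93 and 7.62 CPM. A single exposed liver, at 9.33 CPM, reached into the control range. The log2FC was -0.34 ± 0.10 (adjusted p = 0.0143), and the transcript fell by 20.8%. Alyref has 48.36% GC, and genes with 48 to 50% GC had a median log2FC of 0.08 with a lower quartile of -0.11. After the GC correction its log2FC was -0.47 ± 0.121 (-0.72 to -0.22; adjusted p = 0.0329). That corrected call rested on single mice: with each mouse of the 2 groups left out in turn the corrected log2FC stayed between -0.53 and -0.42, and it passed the threshold in 4 of 10 fits (adjusted p from 0.0253 to 0.0993). With Aroclor alone and with PCB 126 alone the log2FC was -0.05 (adjusted p = 0.811 and 0.868).

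Ybx1, the most abundant of the 9, had 131 to 173 CPM in control and 119 to 146 CPM in the combined exposure. The ranges overlapped, and the log2FC of -0.21 ± 0.0959 did not pass the threshold (adjusted p = 0.0984); DESeq2 gave -0.23 with an adjusted p of 0.0453. Of its read-length windows, 7.94% also match 3 processed pseudogenes. Its corrected log2FC was -0.11 (-0.33 to 0.11; adjusted p = 0.597).

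The other writers did not pass the threshold in any exposure. Nsun2 was the steadiest of the 9, with 90.2 to 113 CPM over all 20 livers, a 1.25-fold span between the highest and the lowest. Its log2FC with the combined exposure was 0.03 (95% confidence interval -0.14 to 0.20). Nsun4 had 19.7 to 26.7 CPM over the livers and a log2FC of 0.09 (-0.10 to 0.28). The GC-corrected values were -0.01 (-0.20 to 0.18) for Nsun2 and 0.01 (-0.21 to 0.24) for Nsun4. The measured intervals leave out changes of the size measured for Nsun3 (0.58) or Nop2 (-0.58). The corrected interval of Nsun4, however, holds the corrected log2FC of Nsun3 (0.20).

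Nsun6 was between 3.37 and 4.47 CPM in control, 4.37 and 4.89 CPM with Aroclor, 3.24 and 4.22 CPM with PCB 126 and 3.85 and 5.02 CPM with both. Its log2FC was 0.30 ± 0.116 with Aroclor (adjusted p = 0.223) and 0.24 ± 0.117 with the combined exposure (adjusted p = 0.123). The latter turned to -0.17 after the GC correction (-0.39 to 0.05; adjusted p = 0.365). The transcript has 42.7% GC, close to that of Nsun3.

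**Figure D3:**
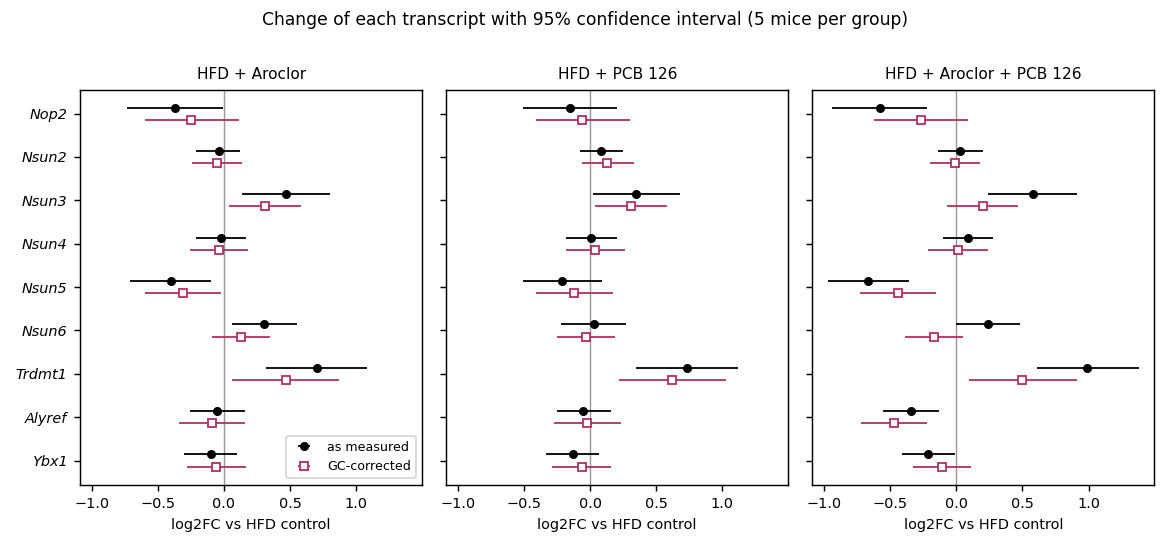
Log2FC of each gene against HFD control with its 95% confidence interval, as measured (filled circles) and after GC correction (open squares), for the 3 exposures (5 mice per group). With the combined exposure the corrected values of Trdmt1, Nsun3, Nsun5 and Nop2 lie nearer to 0 than the measured ones, from 0.99 to 0.50 for Trdmt1, and that of Alyref lies farther, from -0.34 to -0.47.

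Neither PCB alone gave a call among the 9 transcripts in edgeR. There, 0 of 9 passed with Aroclor, where 0% of all genes did, and 0 of 9 with PCB 126, where 0.116% did. At an unadjusted p under 0.05 there were 5 of 9 with Aroclor (Nop2, Nsun3, Nsun5, Nsun6 and Trdmt1), beside 17.2% of all genes, and 2 of 9 with PCB 126 (Nsun3 and Trdmt1), beside 14.7%. After the GC correction there were 3 of 9 with Aroclor (Nsun3, Nsun5 and Trdmt1) and the same 2 of 9 with PCB 126. The corrected log2FC with Aroclor was -0.25 for Nop2 and 0.13 for Nsun6. The corrected share of all genes was not counted for these comparisons. DESeq2 called 1 of 9 in each comparison, Trdmt1, beside 0.87% of all genes with Aroclor and 2.06% with PCB 126. In CPM without GC correction, exposed and control livers did not overlap for 1 of 9 genes with Aroclor (Nsun5, lower), beside 2.94% of all genes. The same held for 1 of 9 with PCB 126 (Trdmt1, higher), beside 2.14%. With the combined exposure it held for 3 of 9 (Trdmt1 and Nsun3, higher, and Nsun5, lower), beside 18.8%. In GC-corrected log2 CPM all of these ranges overlapped. The corrected Trdmt1 livers of the combined exposure reached 1.997, under the highest control at 2.03. Alyref, in contrast, no longer overlapped after the correction (combined exposure up to 3.187, control from 3.295). Corrected ranges were not counted over all genes. The 3 comparisons share the control mice.

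The combined exposure was also compared with each PCB alone. Against HFD + PCB 126, 1 of 9 transcripts was called, Nsun5, with a log2FC of -0.46 ± 0.147 (adjusted p = 0.0399), where 16.7% of all genes were called. The call was lost when only these 2 groups were fitted (log2FC -0.50, adjusted p = 0.0685), after the GC correction (log2FC -0.32, adjusted p = 0.217) and without any 1 of 7 of the 10 mice. It was kept without replicate 1 or 2 of HFD + PCB 126 or replicate 3 of the combined exposure (adjusted p = 0.00926, 0.0422 and 0.0202). Alyref had a log2FC of -0.29 ± 0.10 (adjusted p = 0.0515; 0.0338 in DESeq2).

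Against HFD + Aroclor, 0 of 9 were called by edgeR and by DESeq2, where edgeR called 0.412% of all genes and DESeq2 8.65%. An unadjusted p under 0.05 was found for 1 of 9, Alyref (log2FC -0.29 ± 0.10, adjusted p = 0.11), beside 23.4% of all genes. For the interaction, which asks whether the combined exposure departs from the sum of the single ones on the log2 scale, 0 of 9 were called by either tool, beside 0% of all genes in edgeR and 0.00644% in DESeq2, with 0 of 9 at an unadjusted p under 0.05 (11.9% of all genes). After the GC correction, 0 of 9 were called and 3 of 9 (Nsun3, Trdmt1 and Alyref) had an unadjusted p under 0.05, beside 10.6% of all genes. The measured values furthest from 0 were -0.44 for Trdmt1 (-0.97 to 0.09) and -0.24 for Alyref (-0.54 to 0.05) and Nsun3 (-0.71 to 0.23). On the negative side these intervals are wide enough to hold departures as large as the single-exposure changes themselves. On the positive side those of Trdmt1 and Nsun3 are not. Their upper ends are below the single-exposure log2FC, 0.70 and 0.73 for Trdmt1 and 0.47 and 0.35 for Nsun3.

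**Figure D4:**
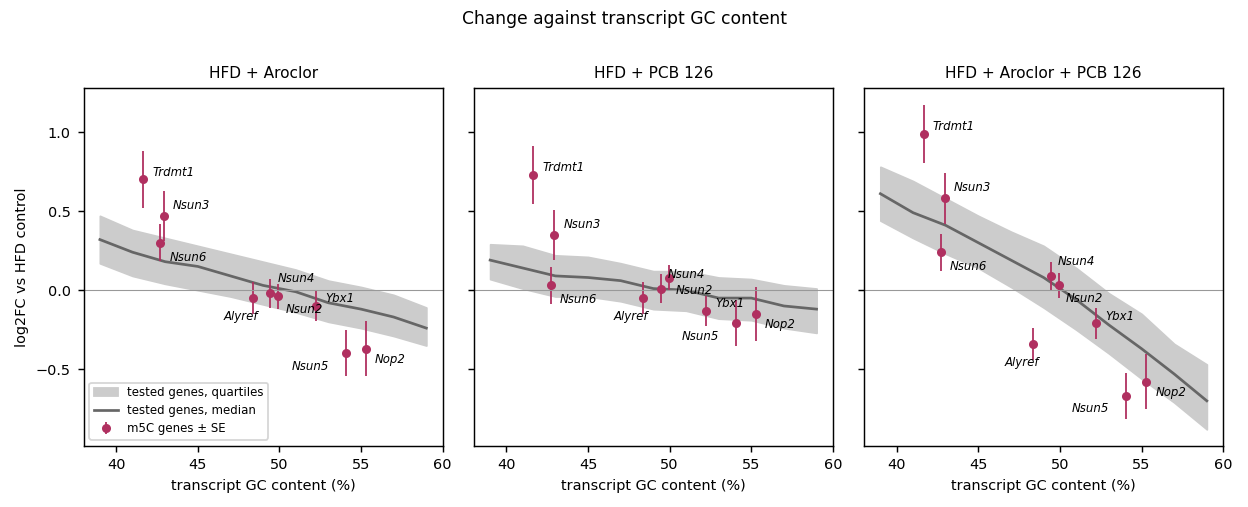
Log2FC against HFD control of the 9 genes (points, with SE) by the GC percentage of their transcripts, over the median (line) and quartiles (band) of all tested genes of at least 1 CPM in bins of 2 percentage points. In the combined exposure the median of all genes runs from 0.61 at 38 to 40% GC to -0.70 at 58 to 60%, where Trdmt1 lies above and Nsun5, Nop2 and Alyref lie below the quartiles of their bins.

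Across the 20 libraries the levels of most members followed the GC slope of the library. Pearson's r between log2 CPM and the slope was 0.86 for Nsun5, 0.78 for Alyref, 0.73 for Nop2 and 0.69 for Ybx1. It was -0.77 for Nsun3, -0.69 for Nsun6 and -0.63 for Trdmt1, and -0.08 for Nsun2 and -0.31 for Nsun4. Within groups, after taking off the group means, r was 0.65 for Nsun5, -0.68 for Nsun3, -0.72 for Nsun6 and 0.67 for Ybx1, but -0.16 for Trdmt1. The slope and the levels come from the same libraries, so these values describe them and were not tested.

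**Figure D5:**
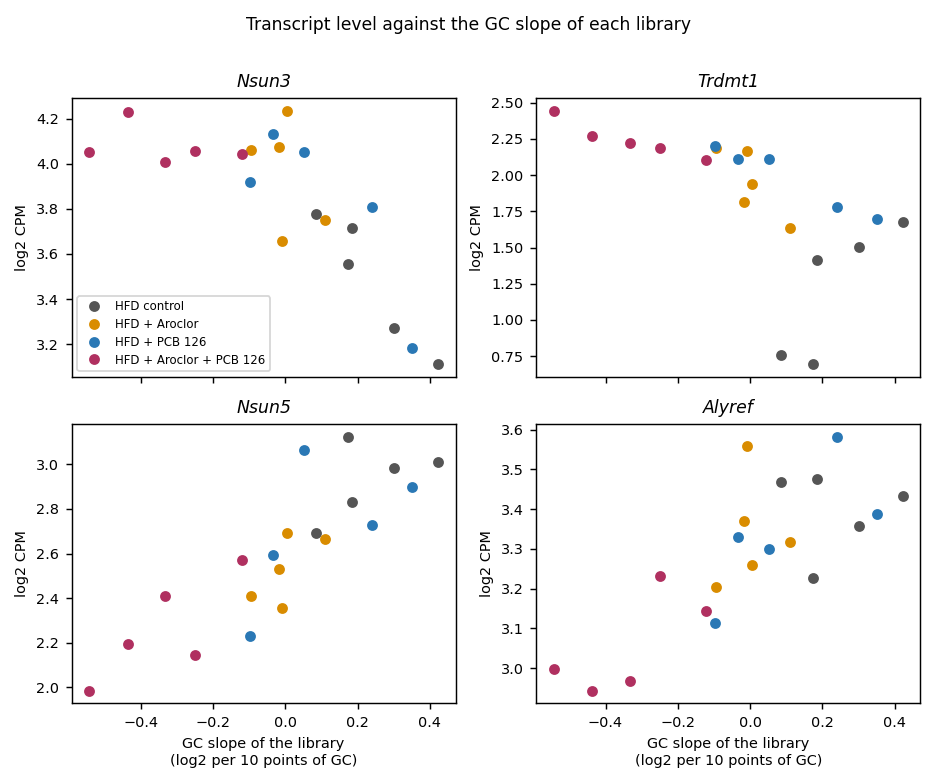
Log2 CPM of Nsun3, Trdmt1, Nsun5 and Alyref in each of the 20 libraries against the GC slope of the library, with a colour for each group. Control libraries (slopes of 0.085 to 0.423) and those of the combined exposure (-0.543 to -0.121) lie at opposite ends. Nsun5 and Alyref run upwards and Nsun3 downwards. The 2 lowest Trdmt1 values belong to the control libraries with the lowest slopes of their group (0.085 and 0.174).

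When the slope itself was put into the fit as a covariate, 0 of 9 were called with the combined exposure. The log2FC of Trdmt1 was then 0.76 (adjusted p = 0.412) and that of Alyref -0.07 (adjusted p = 0.922), and Nsun3 turned to -0.11 (adjusted p = 0.911). Since slope and exposure nearly coincide in these 2 groups, this fit has little left to separate them. Markers of other liver cells also differed, in values without GC correction. Of the 5 stellate cell markers Lrat, Reln and Dcn were called higher with the combined exposure, beside 15.8% of all genes. The list summed to 125 to 241 CPM in control and 268 to 317 CPM in the combined exposure. Dcn, with a mean of 163 CPM over the libraries, made up much of it. The sum did not overlap between these groups, as was so for 18.8% of all genes. Its part in the changes of the m5C genes was not tested. Of the other lists, 1 of 5 markers of macrophages (Adgre1) and 1 of 5 of leukocytes (Ptprc) were called higher, beside 15.8% of all genes. In the lists of sinusoidal endothelium, 1 of 5 (Stab2), and of hepatocytes, 2 of 5 (Apoa1 and Ttr), were called lower, beside 17% of all genes. The sums of the macrophage, leukocyte and endothelial lists overlapped between control and the combined exposure. The hepatocyte list overlapped (93000 to 101000 and 93900 to 117000 CPM), and every marker of the 7 lists was above 0 in every library.

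Among the 9, pairs of genes varied together to different degrees over the 20 libraries. The ribosomal writers Nop2 and Nsun5 had r = 0.72, and 0.55 after the GC correction. Nsun3 and Ybx1 ran against each other with r = -0.80, which became -0.29 after the correction, whereas the value for Nop2 and Nsun2 went from 0.39 to 0.74. Some pairs changed sign with the correction, such as Nsun5 and Nsun6 (from -0.5 to 0.5) and Nsun6 and Alyref (from -0.59 to 0.39). All these points share libraries, normalisation and GC slope.

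The genes whose log2 CPM was most like that of a member were sought among 11341 genes of at least 1 CPM over the 20 libraries. For Nop2 they were Grwd1 and Nop16 (r = 0.93 for both) and Bysl (0.92, and 0.91 after the GC correction). For Trdmt1 they were Fzd4 (0.96), Tns3 (0.94) and Gypc (0.92), and these stayed at 0.92, 0.94 and 0.89 after the correction. Xpo4 was the nearest to Nsun3 (0.97, then 0.90) and Rfxank to Nsun5 (0.93, then 0.88). For Nsun6 the nearest was Nr1d2 (0.85), which dropped to 0.44. The nearest to the remaining members were Slc27a2 for Nsun2 (0.89), Pparg for Nsun4 (0.80), Ntmt1 for Alyref (0.88) and Ccdc107 for Ybx1 (0.91).

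The genes around the writers and readers were taken as a list of 32, of which 30 were tested. They are Nsun7, the oxidising enzymes, other readers and partners, partners of the writers with genes related to tRNA m5C, and the export complex to which Alyref belongs. With the combined exposure 14 of 30 were called (7 higher and 7 lower), again beside 32.8% of all genes, and their median log2FC was -0.04. After the GC correction 3 of 30 were called, beside 4.3% of all genes: Tet3 (log2FC 0.56, adjusted p = 0.0156), Ang (-0.78, adjusted p = 0.0476) and Poldip3 (-0.35, adjusted p = 0.0205). With Aroclor 0 of 30 were called by edgeR (7 at an unadjusted p under 0.05, beside 17.2% of all genes; 1 by DESeq2, Fmr1, beside 0.87%), and with PCB 126 0 of 30 (3 at an unadjusted p under 0.05, beside 14.7%; 1 by DESeq2, Nsun7, beside 2.06%).

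Of the mRNA export partners of Alyref, 8 of 13 were called with the combined exposure, 4 in each direction, beside 32.8% of all genes, and 1 of 13 after the GC correction, beside 4.3%. Thoc1 (log2FC 0.42 ± 0.104), Thoc2 (0.81 ± 0.149), Chtop (0.21 ± 0.0641) and Zc3h11a (0.80 ± 0.253) rose as measured. Their GC-corrected log2FC was -0.17, 0.16, 0.06 and 0.52, so that Thoc1 changed sign and none was called (adjusted p from 0.17 to 0.722). Thoc6 (-0.78 ± 0.198), the helicase Ddx39b (-0.54 ± 0.133), Poldip3 (-0.44 ± 0.0781) and Nxt1, a subunit of the export receptor (-0.57 ± 0.140), fell. Their corrected values were -0.45, -0.24, -0.35 and -0.41. The 4 that rose have transcripts of 37.35 to 47.94% GC and the 4 that fell of 51.99 to 55.64% GC. Poldip3 had 40.1 ± 1.18 CPM in control and 29.7 ± 2.91 CPM in the combined exposure (SD, n = 5), and it was the only one of the 8 still called after the GC correction.

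Of the oxidising enzymes, which turn m5C into its hydroxylated and formylated forms, Tet1 was called higher at a very low level (0.125 ± 0.0754 CPM in control and 0.402 ± 0.235 CPM in the combined exposure; log2FC 1.63, and 1.28 after the GC correction, adjusted p = 0.0722). Alkbh1, which acts on the site methylated by Nsun3, had 9.94 ± 2.09 and 7.21 ± 0.699 CPM without overlap, as was so for 18.8% of all genes. Its log2FC was -0.46 ± 0.182 (adjusted p = 0.0588), and -0.61 after the GC correction (adjusted p = 0.0602). With Aroclor alone it was -0.59 ± 0.182 (adjusted p = 0.195, corrected -0.62, adjusted p = 0.354). With PCB 126 alone it was -0.26 ± 0.181 (adjusted p = 0.517). Among the other readers and partners, Fmr1 rose (log2FC 1.13 ± 0.243; 38.59% GC) and Alyref2, a close relative of Alyref, fell (-0.61 ± 0.204). Neither was called after the GC correction, at 0.56 (adjusted p = 0.0748) and -0.63 (adjusted p = 0.0987).

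Of the 4 genes listed as partners of the writers or as related to tRNA m5C, 2 were called lower, beside 17% of all genes. Qtrt1, a subunit of the enzyme that places queuosine in the same anticodon loop as the site of Trdmt1, had a log2FC of -0.78 ± 0.275 (adjusted p = 0.0342), which became -0.26 after the GC correction (adjusted p = 0.549). Ang, a ribonuclease that cuts tRNA in the anticodon loop, went from 258 ± 58.6 to 159 ± 19.7 CPM (log2FC -0.70 ± 0.213, adjusted p = 0.0167). The groups did not overlap, as was so for 18.8% of all genes. Mterf4, the mitochondrial partner of Nsun4, had a log2FC of -0.09 ± 0.0885 (adjusted p = 0.457; corrected -0.23, adjusted p = 0.209). Nsun7, a family member with a mean of only 0.473 CPM in control, rose with the combined exposure (log2FC 0.85 ± 0.238, adjusted p = 0.00979), and was not called after the GC correction (0.62, adjusted p = 0.125). With PCB 126 alone it had a log2FC of 1.08 ± 0.236 (adjusted p = 0.0548), which passed the threshold after the GC correction (1.09, adjusted p = 0.0498).

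The bases before the start sites of the members were searched for the core of the xenobiotic response element, GCGTG or CACGC on the other strand, since PCB 126 is a ligand of the receptor that binds it. RefSeq windows of 250 bases before the start (GRCm38.p6) were at hand for 8 of the 9 genes, Nsun5 being the exception. The core was present in the windows of 6 of 8 (Nop2, Nsun2, Nsun4, Nsun6, Alyref and Ybx1) beside 30.9% of the 27025 genes with a window. Some genes have several start sites, and by window it was in 6 of 10 windows of the members and in 28.2% of all 32851. The windows of the members had 50 to 74.0% GC, against a median of 52.4% over all windows. The CCAAT box, CCAAT or ATTGG, was in those of 3 of 8 (Nsun6, Alyref and Ybx1) and of 37.5% of all genes, or in 3 of 10 windows against 33.8%; it can share only end bases with the core. Such a match is a string of letters and says nothing of binding.

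The upstream bases are shown for the 4 members that were called with the combined exposure and have a window. Trdmt1 and Nsun3, which rose, lack the core and Nop2 and Alyref, which fell, hold it, but so do Nsun2, Nsun4, Nsun6 and Ybx1, which were not called. Each is written 5′ to 3′ on the strand of the gene, without annotated exon bases, with the core in capitals. Trdmt1 is from chr2:13544669-13544914 (minus strand), Nsun3 from chr16:62786819-62786966 (minus), Nop2 from chr6:125131633-125131882 (plus) and Alyref from chr11:120598366-120598420 (minus).
Trdmt1: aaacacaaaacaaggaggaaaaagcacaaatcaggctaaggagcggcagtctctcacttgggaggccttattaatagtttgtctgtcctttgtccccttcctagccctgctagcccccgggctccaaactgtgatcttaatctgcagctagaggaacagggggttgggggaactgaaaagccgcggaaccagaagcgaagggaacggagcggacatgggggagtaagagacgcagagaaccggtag
Nsun3: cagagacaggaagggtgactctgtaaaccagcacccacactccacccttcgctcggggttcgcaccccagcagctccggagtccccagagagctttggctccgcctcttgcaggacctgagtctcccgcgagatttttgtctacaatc
Nop2: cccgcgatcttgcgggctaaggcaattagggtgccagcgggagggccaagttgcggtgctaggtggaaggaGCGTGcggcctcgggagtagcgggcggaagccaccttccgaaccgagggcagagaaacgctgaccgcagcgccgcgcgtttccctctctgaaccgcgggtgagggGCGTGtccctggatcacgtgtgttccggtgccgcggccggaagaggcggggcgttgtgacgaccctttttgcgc
Alyref: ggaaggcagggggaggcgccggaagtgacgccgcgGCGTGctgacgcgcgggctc

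In GENCODE M21 (GRCm38), Trdmt1 spans chr2:13509014-13544668, Nsun3 chr16:62732444-62786818, Nop2 chr6:125131909-125144753, Nsun5 chr5:135369953-135376805 and Alyref chr11:120592121-120598365. Trdmt1 and Nsun6 are on the same chromosome, as are Nsun4 and Ybx1 on another. All 9 are annotated as protein-coding, and the counts are over their exons.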

How the data were processed

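Liver RNA of 20 mice was sequenced in 4 groups of 5. The authors made strand-specific poly(A) libraries, read 75 bases in 2 runs, aligned to GRCm38.p6 with STAR (2.6) and counted with HTSeq (0.10.0), after quality control with FastQC (0.10.1), per the labels and methods; the annotation release and strand setting of the counting are not given in the sources used here. The deposited values are raw counts per Ensembl gene (21780 genes, 20 libraries), without normalization. For replicate 2 of HFD + PCB 126 the group number in the library name differs from the replicate number in the same title. It is the number that the library name of replicate 3 also carries. The replicate number was used. Nothing in the labels pairs mice of different groups. No pair of libraries within a group was as close as repeat sequencing would give (40 pairs, chi-square of at least 19.7 per degree of freedom), and each library stands for 1 mouse.

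Genes summing to at least 10 counts were kept, normalized with TMM and fitted in edgeR 4.0.16 (R 4.3.3) with a coefficient per group (16 residual degrees of freedom). Tests were two-sided quasi-likelihood tests with Benjamini-Hochberg adjustment over all 15522 genes, called at an adjusted p under 0.05. SE and 95% confidence intervals include counting error and the spread between mice. CPM uses TMM library sizes; log2 CPM has a prior count of 2; FPKM divides by the length of all annotated exons. For the GC correction, each library's deviation in log2 CPM was smoothed over transcript GC content (spline, 6 degrees of freedom) and entered as an offset; it was available for 15516 genes. If the exposure itself acted along GC content, the correction would remove that too. Read-length windows of 75 bases were compared between annotated transcripts to find shared sequence. DESeq2 1.42.0 was an alternative, and the authors name it for their own tests. The fits were tested on simulated data with known changes. Members, gene lists and tests were chosen with earlier results of these data known. The text names the 9 members, the list genes past the threshold in a comparison with HFD control, the 3 exposure genes and the most similar genes by correlation; Alkbh1, Mterf4 and the markers named were chosen after their values were seen. Of the 32 genes in the list, Lin28b and Ddx39a were not tested, and Cyp2b10 is not discussed.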

Additional observations from a re-analysis of the deposited data

Results flagged for a closer look

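In 2 of the 36 groups of 5 livers examined (9 genes in 4 groups), 1 mouse stood farther from the other mice than Dixon's 95% limit for 5 values allows, a limit that chance exceeds in about 1 in 20 groups. Nsun3 in HFD + Aroclor + PCB 126 replicate 5 was at 18.7 CPM, against 16 to 16.5 CPM in the other mice of the combined exposure. Without this mouse its log2FC against control remained past the threshold. Nsun6 in HFD control replicate 5 was at 4.47 CPM, against 3.37 to 3.55 CPM in the other controls. Without that mouse the log2FC of Nsun6 with the combined exposure was 0.32 and passed the threshold (adjusted p = 0.0461, edgeR), in place of 0.24 (adjusted p = 0.123).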

How the results depend on the processing

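The 5 calls among the 9 genes with the combined exposure were kept with RLE or upper-quartile scaling, without the filter, with the replicate number as a block (5 of 9), and without each mouse in turn (5 to 6 of 9; Ybx1 joined without control replicate 4 and Nsun6 without control replicate 5). The filter on FPKM removed Nsun6 and Trdmt1, which then have no value, and gave 4 calls. The calls dropped to 1 with the GC offset, 1 with the GC offset and the block, and 0 with the GC slope as covariate. With the GC offset and a mouse left out, chosen after seeing the data, they were 0 to 2, and those of the other list 0 to 4. That list had 14 calls, 11 to 15 without a mouse, 3 with the GC offset, 4 with the GC offset and the block, and 0 with the covariate. DESeq2 called 1 of 9 and 1 list gene with Aroclor and 1 of 9 and 1 list gene with PCB 126; for PCB 126 the list also gave 1 with the GC offset, 1 with the offset and the block and 1 with the covariate. Against PCB 126 alone the 1 call became 0 with only these groups, 0 with the GC offset, 0 with the offset and the block and 0 with the covariate, 2 in DESeq2, and 0 to 3 without a mouse: 3 without PCB 126 replicate 1, 2 without replicate 3 of the combined exposure, and 0 without PCB 126 replicate 3, 4 or 5 or combined replicate 2, 4 or 5.

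Signs turned mainly for log2FC near 0. With PCB 126 Nsun4 was at -0.029 with upper-quartile scaling, -0.009 with the FPKM filter and -0.006 with the covariate, and Nsun6 at -0.016, -0.028 (GC offset), -0.026 (offset and block) and -0.074 (covariate). With the combined exposure Nsun2 was at -0.011, -0.011 and -0.030 and Nsun6 at -0.172, -0.167 and -0.176 with the GC offset, the offset with the block and the covariate. The covariate also gave 0.061 for Alyref and 0.054 for Ybx1 with Aroclor, 0.011 for Alyref with PCB 126, and -0.112 for Nsun3 and 0.165 for Ybx1 with both. Leaving out a mouse gave ranges across 0 for Nsun6 (-0.022 to 0.103), Nsun4 (-0.033 to 0.049) and Alyref (-0.11 to 0.008) with PCB 126, Nsun4 with Aroclor (-0.067 to 0.012) and Nsun2 with both (-0.009 to 0.057); the highest were 0.119 for Nsun4 and 0.319 for Nsun6 with both. With the GC offset as well, the ranges with both were -0.06 to 0.03 for Nsun2, -0.07 to 0.073 for Nsun4 and -0.241 to -0.105 for Nsun6. The cause of these changes was not tested.

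The labels do not pair the mice by replicate number. Over 30 same-number pairs the correlation ran from -0.26 to 0.74 (median 0.05), and 13 were over 0.1. Of the 20 libraries, 9 correlated best with their own number, and what same-number libraries may share was not tested. The block changed no call among the 9. Among all genes it raised the calls from 0 to 26 with Aroclor, from 18 to 101 with PCB 126 and from 5089 to 5292 with both. Trdmt1 (36 to 152 counts per library) and Nsun6 (78 to 164) rest on the fewest reads and limit what the depth can show.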
